A study of Arabidopsis thaliana with 6 samples.

Results

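These are 36 genes that were already strongly expressed in the stem of Arabidopsis thaliana and had a higher level after N-1-naphthylphthalamic acid (NPA), a blocker of polar auxin transport. They were found among 13355 genes with a probe set of their own. A probe set is a group of short probes that measures 1 transcript. Of the 22746 probe sets other than controls, 8730 had no listed gene and could not give a member. A member had a mean of at least 8 over the mock arrays, a mean at least 0.7 higher over the NPA arrays, both on the log2 scale, and a lowest NPA value above its highest mock value. Of the 13355 genes, 2895 had such a mock mean, 46 of these (1.59%) also had the difference, and 45 of those also had groups that did not overlap. Of the 45, 9 were left out by name, among them EXPA4, HCT, TBL36, GH9B7, IRX15, IRX15-L and GUT2, which is also called IRX10. The level, the difference and the separation of the groups chose the members, so they are given here as a description and without a test.

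The study used wild-type plants of the Col strain, raised in short days (8 h light) for 3 weeks and in long days (16 h light) after that. Stem pieces of 3 mm, lying 2.5 cm above the base, were collected on day 7 of a treatment with 10 mg/g NPA (3 samples) or of a mock treatment (3 samples). Each sample's total RNA was read on 1 Affymetrix array. The stated purpose was to find genes through which auxin starts and drives the cambium.

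Auxin made in the shoot tip moves down the stem from cell to cell, and a block of this transport lets it build up in the tissue. The cambium is the ring of dividing cells that thickens a stem, making xylem on its inner side and phloem on its outer side. New vascular cells lay down and remodel walls, a task that needs secreted enzymes, wall proteins, precursors of lignin and lipids, and microtubules that guide the synthesis of cellulose.

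The arrays had upper quartiles of 8.05 to 8.17, so a mock mean of 8 lay just below the upper quartile of every array. On the first principal component, with 42.6% of the variance, all mock arrays lay apart from all NPA arrays. On the second, with 21.9%, mock 1 and NPA 3 stood apart from the other 4 arrays, so the differences of several members are also given without one or both of them. Markers of the vascular stem and of the green cortex were present, at mock levels of 5.49 to 11.55 and of 8.82 to 12.30. The 3 measured genes of seed, pollen or root hair, OLEO3, SPL and EXPA7, were at 3.84 to 4.08, below the lower quartiles of 4.16 to 4.31. The summed level of the 6 vascular markers (HCT, GUT2, IRX15, OPS, SWEET11 and CLE44) ranged from 11.87 to 12.01 in mock and from 12.76 to 12.91 in NPA, on the log2 scale. The sum was taken over unlogged values, so HCT, the brightest of these 6, weighs most in it. Of these 6, 5 were called higher in the fit over all probe sets with limma, a linear model with a moderated variance. The sixth, the sucrose carrier gene SWEET11, had a lower mean in NPA, by a log2 difference of -0.95 (adjusted p = 0.0909). Over all probe sets 2.76% were called higher. HCT, GUT2 and IRX15 passed the limits for members themselves and were left out by name, and earlier results of these data were known. The markers' rise is therefore no separate measure of vascular tissue. The call of OPS was lost without mock 1, mock 2 or NPA 1. The summed level of 6 green cortex markers overlapped between mock (13.66 to 13.94) and NPA (13.83 to 14.03), and 0 of 6 were called by limma or had an unadjusted p under 0.05. What part the vascular markers' rise has in the members' values was not tested. In such pieces, more cells of a type and more RNA per cell cannot be told apart.

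The members' mock means ran from 8.05 to 12.16 with a median of 8.61, and their NPA means from 8.89 to 13.07 with a median of 9.72. Their differences ran from 0.73 to 1.91 on the log2 scale, or from 1.65-fold to 3.75-fold, with a median of 1.02. The median difference was -0.01 over the 2859 other genes with mock means of at least 8 and 0.02 over all 22746 probe sets tested. On the mock arrays the 2859 genes had medians of 8.97 to 9.02 and the members medians of 8.56 to 8.67. A difference of at least 1 on the log2 scale was reached by 20 members. A level depends on the probes as well as on the transcript, so brightness orders signals and not amounts of RNA. Most members lay near the lower limit of brightness, with 29 mock means under 9, 4 from 9 to under 10 and 3 of at least 10. Of the 36, 31 had an adjusted p under 0.05 for a rise by limma, where 2.76% of all probe sets had. The rule used the same contrast, so nothing is read from that count. Groups that do not overlap, with NPA higher, were found in 14.8% of all probe sets and in 13.2% of the genes with a mock mean of at least 8.

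**Figure D1:**
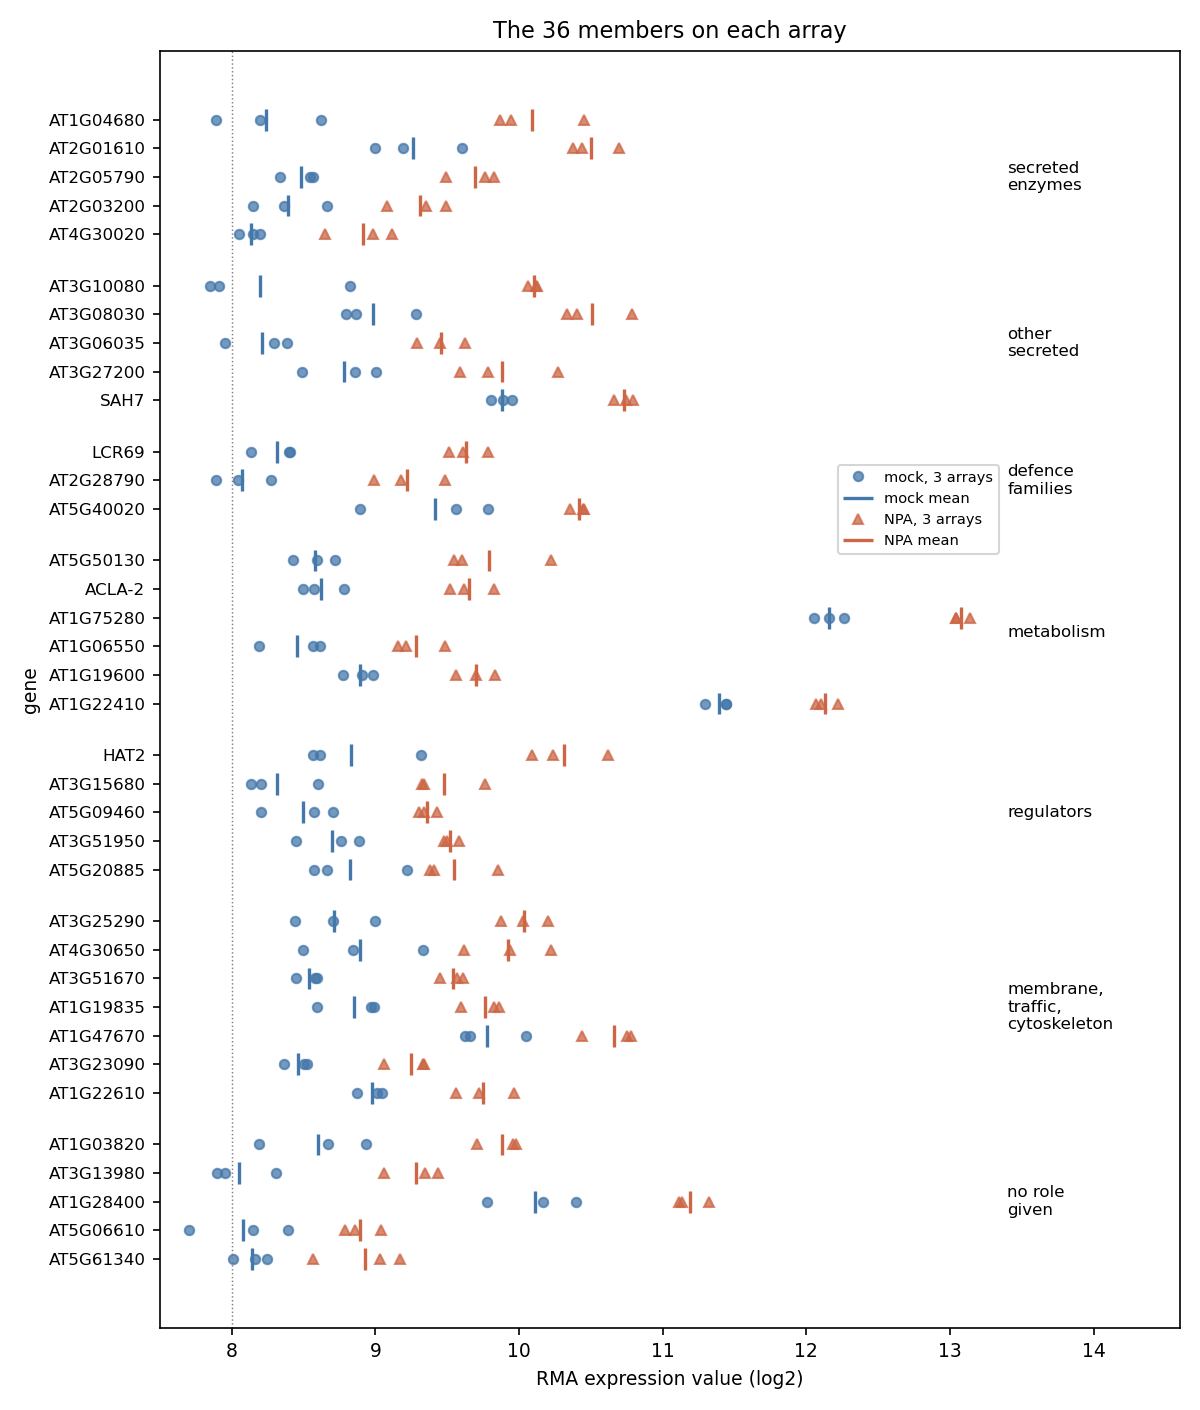
RMA expression value on the log2 scale (x axis) of each of the 36 members (rows, grouped by the role of their family) on the 3 mock arrays (circles) and the 3 NPA arrays (triangles), with bars at the group means and a dotted line at 8. The mock means lie between 8.05 and 12.16, with only AT1G75280 and AT1G22410 above 11, and the groups lie farthest apart in AT1G04680 (1.25) and AT3G10080 (1.24).

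**Figure D2:**
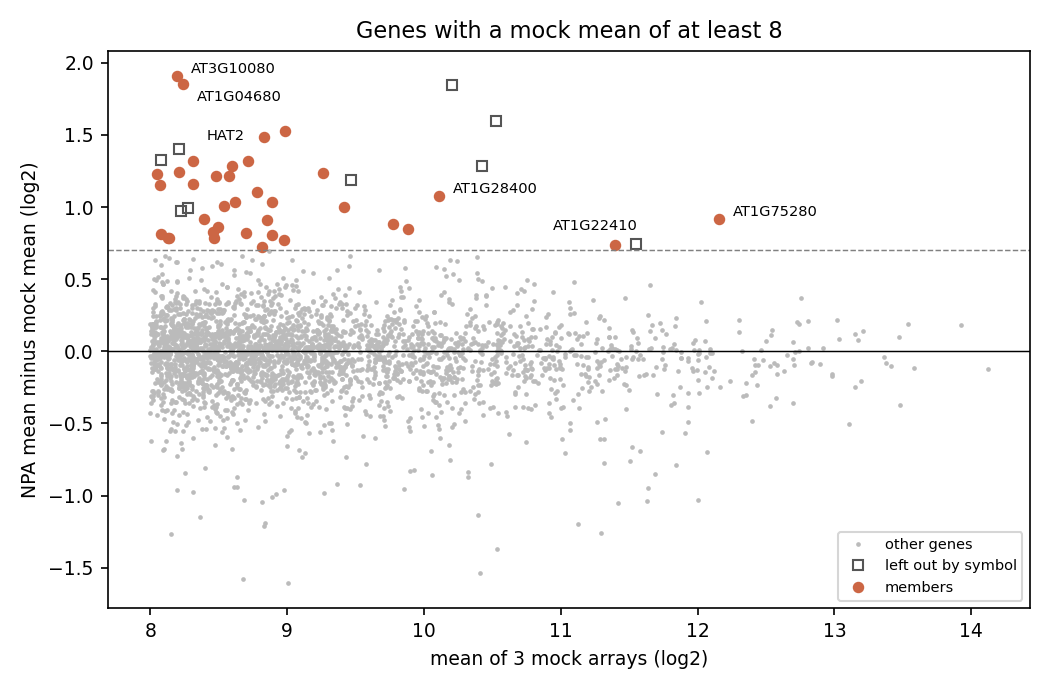
Mock mean (x axis, log2) against NPA mean minus mock mean (y axis, log2) of the 2895 genes with a mock mean of at least 8, with the dashed line at a difference of 0.7. The 36 members (filled circles) and the 9 genes left out by name (open squares) lie above the line with AT5G41400, whose groups overlapped, and 48 genes lie at -0.7 or lower.

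Families whose proteins are mostly secreted or bound to the wall made up 10 of the 36 members. Counted apart from these 10 are 3 members of defence-related families, although LCR69 among them also encodes a secreted protein. The share of such families among the other bright genes was not counted. The 10 had a median difference of 1.23, against 0.96 in the other 26, which include the 3 defence-related members. In 7 of the 10 and in 13 of the 26 the difference was at least 1. The rule chose members by this difference, so nothing is read from the comparison. The largest difference of all members was that of AT3G10080, of the cupin family, which holds many germin-like wall proteins. AT3G10080 was at 8.82, 7.85 and 7.91 in mock and at 10.13, 10.12 and 10.06 in NPA, a difference of 1.91 with a standard error of 0.24. Its NPA values spanned 0.06, while mock 1 stood 0.94 above the mean of the other mock arrays. Without mock 1 its mock mean was under 8, and it was no longer a member. Its difference without mock 1 was 2.22.

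Pectin is the gel-forming polysaccharide of the wall. AT1G04680, of the pectate lyases, which cut pectin, had 8.62, 8.20 and 7.89 in mock and 9.94, 9.87 and 10.45 in NPA, a difference of 1.85 (SE 0.22). AT2G01610, of a family of inhibitors of invertases and pectin methylesterases, had 9.60, 9.19 and 9.0 in mock and 10.44, 10.38 and 10.69 in NPA, a difference of 1.24 (SE 0.17). In both genes mock 1 was the highest mock array and NPA 3 the highest NPA array, the 2 arrays that stood apart on the second component. Without both arrays the differences were 1.86 and 1.31.

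AT3G08030, of the DUF642 family of wall proteins, had 9.28, 8.87 and 8.80 in mock and 10.40, 10.33 and 10.79 in NPA, a difference of 1.53 (SE 0.17). AT3G06035, a glycoprotein anchored to the membrane by a GPI lipid, had 8.30, 8.39 and 7.95 in mock and 9.45, 9.63 and 9.29 in NPA. AT2G05790, of a family of beta-1,3-glucanases, had 8.54, 8.56 and 8.33 in mock and 9.49, 9.82 and 9.76 in NPA. AT3G06035 and AT2G05790 had differences of 1.24 and 1.21, and the lowest NPA value was 0.91 and 0.93 above the highest mock value. AT3G27200, of the cupredoxins, which are small copper proteins, had 8.49, 9.0 and 8.86 in mock and 9.59, 10.27 and 9.78 in NPA. Here mock 1 was the lowest mock array, which among the 10 genes was seen in this one alone.

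The proteases AT2G03200, of the aspartyl type, and AT4G30020, of the subtilisin type, had smaller differences of 0.92 and 0.78. AT2G03200 was at 8.66, 8.37 and 8.15 in mock and at 9.36, 9.49 and 9.08 in NPA. AT4G30020 was at 8.19, 8.15 and 8.05 in mock and at 8.65, 8.98 and 9.11 in NPA, so that its NPA arrays spread more (SD 0.24) than its mock arrays (SD 0.07). SAH7, of a family first known from an olive pollen allergen, was the brightest of the 10 and had the smallest spread over both groups together. It had 9.95, 9.81 and 9.89 in mock and 10.66, 10.80 and 10.74 in NPA, with an SD of 0.07 in each group (n = 3) and a difference of 0.85.

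A further 3 members belong to families known from defence, all with a difference of at least 1. LCR69, also called PDF2.2, encodes a plant defensin, a small secreted protein rich in cysteine. It had 8.40, 8.14 and 8.40 in mock and 9.51, 9.61 and 9.78 in NPA, a difference of 1.32 (SE 0.12). Both remaining genes are of the thaumatin family, whose best known members gather in plants under attack by microbes. AT2G28790 was at 8.27, 8.04 and 7.89 in mock and at 9.17, 9.49 and 8.99 in NPA, and AT5G40020 at 9.79, 9.56 and 8.89 and at 10.35, 10.45 and 10.44. The mock values of AT5G40020 spanned 0.89 and its NPA values 0.10.

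The 6 genes of metabolism held the 2 brightest members and had differences between 0.74 and 1.21. AT1G75280, of the isoflavone reductase-like family, had the highest level of all 36, at 12.16, 12.26 and 12.05 in mock and 13.04, 13.04 and 13.14 in NPA. AT1G22410 encodes a DAHP synthase, which makes the first step of the shikimate pathway toward phenylalanine, the source of lignin precursors. It was at 11.30, 11.44 and 11.44 in mock and at 12.10, 12.22 and 12.07 in NPA. In these 2 genes differences of only 0.92 and 0.74 went with SDs of 0.06 to 0.10 (n = 3), so the groups lay 0.78 and 0.63 apart.

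ACLA-2 encodes a subunit of ATP-citrate lyase, which makes cytosolic acetyl-CoA for waxes, sterols and flavonoids. It was at 8.58, 8.78 and 8.50 in mock and at 9.62, 9.83 and 9.52 in NPA, a difference of 1.04 (SE 0.12). AT5G50130, of the short-chain dehydrogenases, was at 8.72, 8.59 and 8.42 in mock and at 9.60, 9.55 and 10.23 in NPA. NPA 3 stood above the other NPA arrays, and the difference of 1.21 was 1.0 without it. AT1G06550, of the crotonase family, and AT1G19600, of a family of sugar kinases, had differences of 0.83 and 0.81. AT1G06550 had 8.19, 8.61 and 8.56 in mock and 9.48, 9.16 and 9.21 in NPA, and AT1G19600 had 8.78, 8.99 and 8.91 and then 9.70, 9.56 and 9.83.

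Among 5 genes of regulatory families, HAT2 stood first. It encodes a class II homeodomain leucine zipper factor known as auxin-inducible in seedlings. HAT2 was at 9.32, 8.61 and 8.56 in mock and at 10.09, 10.24 and 10.62 in NPA, a difference of 1.49 (SE 0.23). Mock 1 lay 0.73 above the mean of mock 2 and mock 3, and still 0.77 under the lowest NPA array. Without mock 1 and NPA 3 its difference was 1.58.

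AT5G09460 belongs to the SAC51 family of basic helix-loop-helix proteins, whose founding member acts with thermospermine in xylem formation. It was at 8.20, 8.71 and 8.57 in mock and at 9.43, 9.34 and 9.30 in NPA. AT3G15680, of a family of Ran-binding-type zinc fingers, was at 8.60, 8.20 and 8.14 in mock and at 9.32, 9.34 and 9.76 in NPA. Of these, AT3G15680 had the larger difference, 1.16 against 0.86, and AT5G09460 the tighter NPA values (SD 0.06 against 0.25). AT3G51950, with a CCCH zinc finger of the kind that binds RNA, was at 8.45, 8.89 and 8.76 in mock and at 9.48, 9.59 and 9.50 in NPA. AT5G20885, a RING finger protein, was at 9.22, 8.67 and 8.57 in mock and at 9.38, 9.41 and 9.85 in NPA. AT5G20885 had the smallest difference (0.73) and the narrowest gap (0.16) of all members.

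Of 7 genes of membranes, traffic and the cytoskeleton, AT3G25290 had the largest difference, 1.32 (SE 0.16). It belongs to a family of auxin-responsive proteins with a DOMON and a cytochrome b561 domain, and was at 8.71, 9.0 and 8.44 in mock and at 9.87, 10.20 and 10.03 in NPA. AT4G30650, of the RCI2 family of small membrane proteins induced by cold and salt, was at 8.50, 8.84 and 9.33 in mock and at 9.61, 9.94 and 10.22 in NPA. Its difference of 1.03 came with a gap of only 0.28, since both groups spread widely.

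AT3G51670 encodes a patellin, of a lipid-binding family whose best known member acts on the cell plate of dividing cells. With 8.45, 8.59 and 8.58 in mock and 9.56, 9.45 and 9.61 in NPA it had an SD of 0.08 in each group (n = 3) and a difference of 1.0 (SE 0.095). AT3G23090, or WDL3, encodes a protein that bundles microtubules. It was at 8.36, 8.52 and 8.50 in mock and at 9.06, 9.33 and 9.34 in NPA. AT1G19835, of the filament-like proteins of the DUF869 family, was at 8.60, 8.97 and 8.99 in mock and at 9.60, 9.83 and 9.86 in NPA. Both genes were lowest in mock 1 and in NPA 1, and their differences were 0.78 and 0.91.

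AT1G47670, of a family of amino acid transporters, was at 10.05, 9.66 and 9.62 in mock and at 10.44, 10.78 and 10.75 in NPA. AT1G22610, with several calcium- and lipid-binding C2 domains, was at 9.04, 9.01 and 8.87 in mock and at 9.72, 9.97 and 9.56 in NPA. Their differences of 0.88 and 0.77 were in the lower part of the members' range.

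No role is given here for the 5 remaining genes. AT1G28400 was bright, at 9.78, 10.17 and 10.39 in mock and 11.13, 11.32 and 11.11 in NPA, and AT1G03820 was at 8.93, 8.67 and 8.19 and at 9.96, 9.98 and 9.71. AT3G13980 was at 8.31, 7.95 and 7.90 in mock and at 9.06, 9.34 and 9.44 in NPA. These 3 had differences of 1.08, 1.28 and 1.23. AT5G06610 was at 7.70, 8.15 and 8.39 in mock and at 8.79, 8.86 and 9.04 in NPA, and AT5G61340 at 8.25, 8.01 and 8.16 and at 8.57, 9.17 and 9.03. Their differences, 0.81 and 0.79, were close to the limit of 0.7, and their mock means, 8.08 and 8.14, were close to 8.

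Genes just inside and outside the limits had nearly the same values. Of genes that met all limits but the level, SKU5 came closest, with a mock mean of 7.95 and a difference of 1.26, followed by AT5G02440 and scpl35 at 7.93. Inside the limit were AT3G13980 (8.05), AT2G28790 (8.07) and AT5G06610 (8.08). By difference, AT5G20885 (0.73), AT1G22410 (0.74) and AT1G22610 (0.77) lay just inside, and AT2G01820 (0.69), scpl48 (0.66) and AT1G70480 (0.66) just outside. AT5G41400 was the only gene that missed by overlap alone, by 0.04, while AT5G20885, AT4G30650 and AT5G61340 had the narrowest gaps inside, 0.16, 0.28 and 0.32.

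The members did not vary alike on mock 1. In mock, array 1 was the highest in 18 of the 36 members and the lowest in 12, so it was seldom in the middle. Mock 1 was also the highest in 42.01% and the lowest in 34.45% of the 2859 other bright genes. Its place at the ends was therefore not particular to the members. Among the 10 genes of secreted and wall proteins mock 1 was the highest in 7 and the lowest in 1. Among the other 26 members it was the highest in 11 and the lowest in 11. Mock 3 was the lowest in 20 members (55.6%), against 28.3% of the 2859 other bright genes. In NPA, array 1 was the lowest in 19 members (52.8%), against 35.0% of the other bright genes. NPA 3 was the highest in 17 members (47.2%) and in 41.4% of the others.

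The median SD of a member was 0.23 in mock and 0.17 in NPA (n = 3 arrays each), against 0.12 and 0.14 in the other bright genes. The NPA group had the larger SD in 11 members (30.6%) and in 56.7% of the other bright genes. The rule asks for groups that do not overlap and so bears on these spreads, which are given with no test. The median difference of the members was 0.99 without mock 1, 0.99 without NPA 3 and 0.99 without both. Without both, AT5G06610 and AT4G30650 were at 0.55 and 0.69, down from 0.81 and 1.03.

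**Figure D3:**
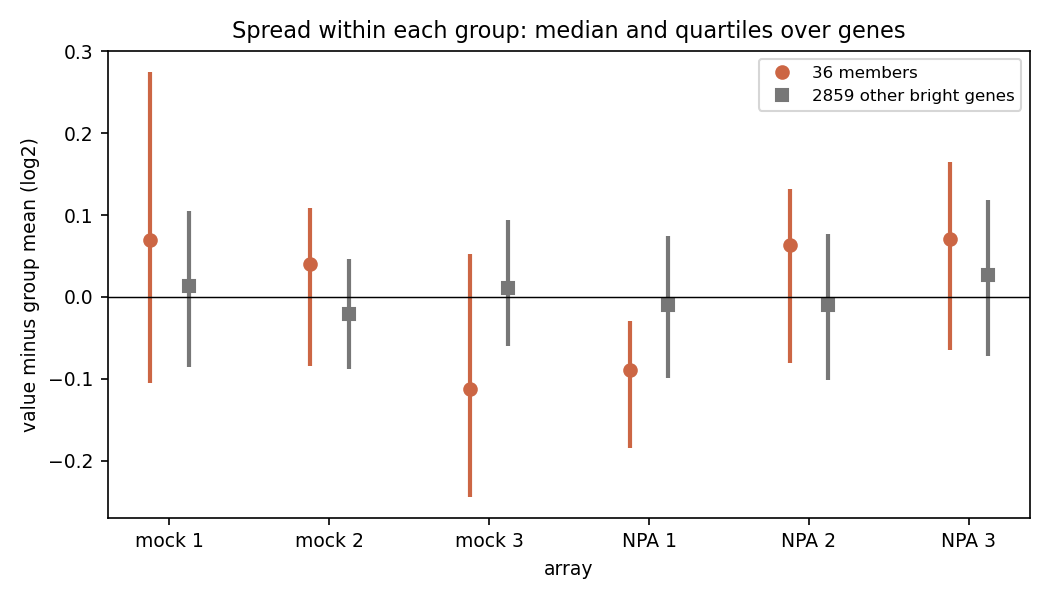
Value minus group mean on the log2 scale (y axis) on each of the 6 arrays (x axis), for the 36 members (circles) and the 2859 other genes with a mock mean of at least 8 (squares). Symbols are medians and bars run from the lower to the upper quartile over genes. The members' bars are widest in mock 1, and their medians are lowest in mock 3 (-0.11) and NPA 1 (-0.09).

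Relatives of 8 members were looked up by family, which the rule did not use. Of 40 relatives, 19 had a probe set of their own. Of the 7 listed for HAT2 and the 2 listed for AT1G22410, 0 had one, so these members have no relative here. Families of the other members were not looked up. In the limma fit, adjusted over the 22746 probe sets by Benjamini-Hochberg, 4 of the 19 rose and none fell, while 8 had an unadjusted p under 0.05. Over all probe sets 2.76% rose, 0.242% fell and 16.3% had an unadjusted p under 0.05. The relatives' differences ran from -0.30 to 1.02 with a median of 0.24.

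In the DUF642 family 7 relatives of AT3G08030 were measured and 1 rose. AT1G29980 went from 6.98 ± 0.19 to 8.00 ± 0.19 (SD, n = 3 each), by 1.02 (SE 0.14, limma adjusted p = 0.0115). Its arrays read 7.19, 6.83 and 6.92 in mock and 7.98, 7.82 and 8.21 in NPA, without overlap. The call was lost without mock 3 or without NPA 1, with adjusted p up to 0.0518. The other 6 lay between -0.30 (AT4G32460) and 0.32 (AT5G11420), and 0 of the 6 passed 0.05 by limma even before adjustment.

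All 3 measured patellin relatives of AT3G51670 had higher means, and 1 of them rose. AT1G30690 was at 6.66, 6.68 and 6.61 in mock and at 7.24, 7.41 and 7.86 in NPA, higher by 0.85 (SE 0.16, limma adjusted p = 0.0357). AT4G09160 differed by 0.52 (adjusted p = 0.140) and the bright AT1G72160, at 11.47 in mock, by 0.37 (adjusted p = 0.193). In all 3 genes NPA 3 was the highest array, and the call of AT1G30690 was lost without any 1 of the mock arrays and without NPA 2, with adjusted p up to 0.115. Without NPA 3 its difference was 0.67.

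Of the microtubule proteins related to WDL3, AT4G32330 rose by 0.62 (SE 0.11, limma adjusted p = 0.0292), from 8.02, 8.22 and 8.33 to 8.75, 8.89 and 8.80. AT2G35880 and AT1G54460 differed by 0.16 (adjusted p = 0.573) and 0.12 (adjusted p = 0.852). Of the other genes of ATP-citrate lyase, ACLA-1 rose by 0.49 (SE 0.09, limma adjusted p = 0.0387), from 10.46, 10.39 and 10.42 to 10.96, 10.98 and 10.80. ACLB-1 differed by 0.32 (adjusted p = 0.190) and ACLA-3 by 0.04 (adjusted p = 0.894). The call of AT4G32330 was lost without any 1 of the 6 arrays, and that of ACLA-1 without any 1 but NPA 3, with adjusted p up to 0.109 and 0.149.

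AT5G50010, of the SAC51 family like AT5G09460 but with a dim mock mean of 4.54, differed by 0.57 (adjusted p = 0.0641). The RCI2 relatives AT2G24040 and AT4G30660 differed by 0.17 (adjusted p = 0.431) and -0.12 (adjusted p = 0.767). AT4G30660, which lies next to the member AT4G30650, was itself bright, at 9.90 in mock. With arrays centred on their medians, which lowered all differences by 0.11, AT1G29980 alone of the 4 called relatives kept its call. With the replicate number as a block, also only AT1G29980 did.

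**Figure D4:**
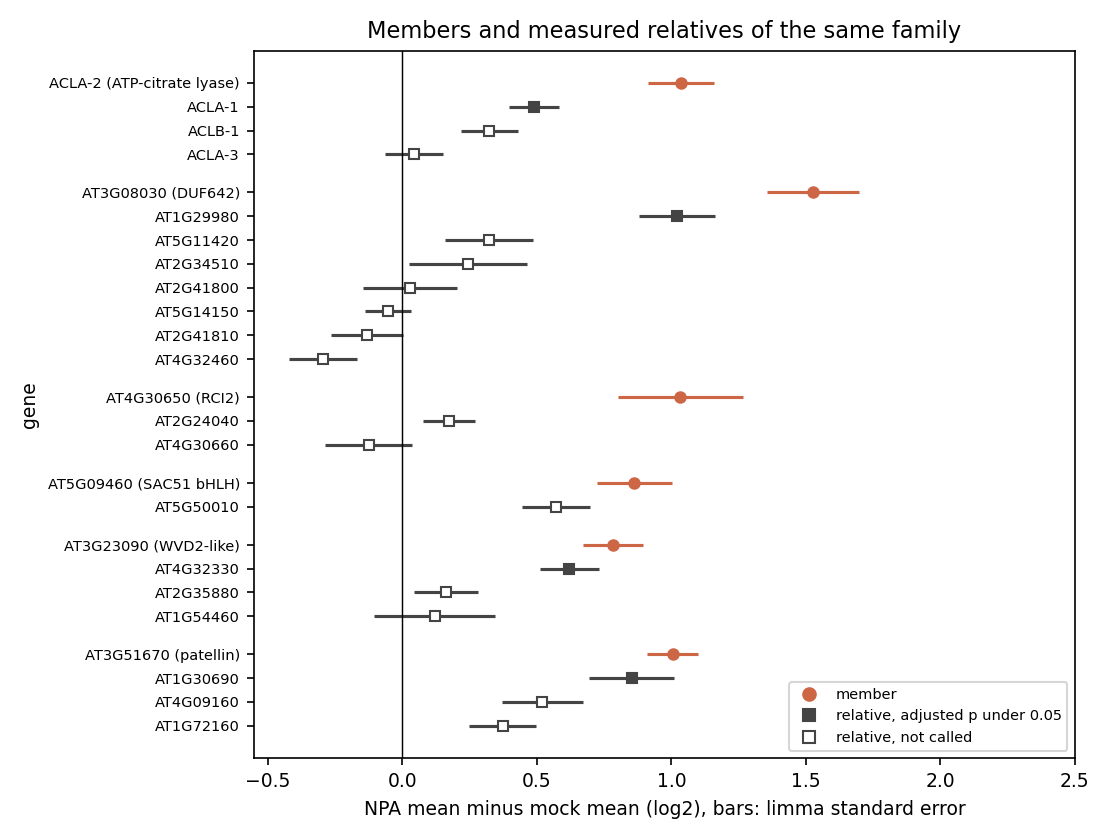
NPA mean minus mock mean on the log2 scale (x axis) with limma's standard error (bars) for 6 members (circles) and the 19 measured relatives of the same families (squares, filled where the adjusted p was under 0.05). The 6 members, chosen for their difference, lie at 0.78 to 1.53, and of the relatives AT1G29980, AT1G30690, AT4G32330 and ACLA-1 were called.

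Neighbours on the chromosome were looked up as well. Of 72 genes directly before or after a member, 42 had a probe set of their own, and none of these was itself a member. Their median difference was 0.01, with a range from -0.70 to 0.37. By limma 0 of the 42 were called in either direction, and 6 had an unadjusted p under 0.05. Of all probe sets, 2.76% were called higher, 0.242% lower, and 16.3% had an unadjusted p under 0.05. With so few genes, nothing about neighbours is read from these counts. AT1G75290, next to the brightest member AT1G75280, was dim in mock (4.41) and differed by 0.37 (adjusted p = 0.119), the highest value of the 42. The closest pair of members, AT1G22410 and AT1G22610, had 18 protein-coding genes between them.

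Other genes of wall synthesis, growth and auxin response give the setting for these values. Over lists matched by gene symbol, with the members taken out, 26 genes rose by limma and 0 fell. The lists hold only genes with a named probe set, so they can miss genes of these families. Of all probe sets, 2.76% rose and 0.242% fell. The lists still held genes that passed the members' limits and were left out by name, among them HCT, EXPA4, TBL36, IRX15-L and GUT2. Their rise is part of what the limits asked for and is no separate support. Of 25 genes of xylan synthesis and acetylation 7 rose, of 23 of cellulose synthesis and of the GH9 glycosyl hydrolases 6, of 28 of xyloglucan and wall loosening 3, and of 3 of pectin 1. Of 21 genes of microtubules, actin and the IQD family 4 rose, among them the alpha-tubulin gene TUA6, which went from 10.39 ± 0.13 to 11.04 ± 0.08 (SD, n = 3 each), by 0.65 (adjusted p = 0.0206). The call of TUA6 depended on mock 2, mock 3, NPA 1 and NPA 2, and without 1 of them its adjusted p went up to 0.0887. The pectin gene was PME61, a pectin methylesterase, which rose by 0.49 (adjusted p = 0.0336) from 10.76. Its call was gone whichever array was left out (adjusted p from 0.0596 to 0.125). The calls of TUA6 and PME61 were also lost with the replicate number as a block and with arrays centred on their medians.

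Of 14 genes of auxin response and transport 3 rose, of 4 of monolignol synthesis 1 (HCT) and of 2 phloem genes 1 (OPS), the other being SWEET11. Of 3 laccases and peroxidases, 10 genes of vesicle traffic and 9 of photosynthesis, 0 were called by limma. An unadjusted limma p under 0.05 was found in 0, 3 and 1 of them, beside 16.3% of all probe sets. PHV, the other homeobox gene on the list of HAT2, differed by 0.37 (adjusted p = 0.410). The list medians of the genes that are no members were 0.30 for xylan, 0.10 for cellulose, 0.02 for wall loosening and 0.27 for microtubules, beside 0.02 over all probe sets.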

How the data were processed

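Expression was measured on 6 Affymetrix arrays. The authors deposited log2 values, and the submitters' processing notes name RMA and limma. RMA gives no detection call. Versions, probe set definitions and later steps are unknown here. The number of arrays limits the precision. Titles gave the group and replicate number of each sample. No label says that a group's samples are separate plants, so p-values cover the spread between these 6 samples only, and that spread may be technical.

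Of 22810 probe sets, 64 controls were left out. The platform's gene table gave 13513 probe sets exactly 1 gene, 503 several and 8730 none. Names were updated from a RefSeq table of the TAIR10.1 assembly, by gene number for 13436, by locus for 48 and by symbol for 24, and 5 kept the platform's name. For each gene the probe set with the highest mean was used. Each member had 1 probe set. Names to leave out were matched as the start of a symbol or a listed synonym.

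Differences, standard errors and adjusted p-values (threshold 0.05) came from limma 3.58.1 (lmFit, eBayes) under R 4.3.3, over all 22746 probe sets, with no block, and an SD is that of 3 arrays. The fit was tested on simulated data. Tables and plots used Python 3.11.15, pandas 2.3.3 and matplotlib 3.10.9. The members and lists were chosen with earlier results of these data known. Any member could be named. Of each list, up to 3 genes with the lowest p could be named. The relatives were listed by family after the members were known, and symbols that matched a list by letters only were taken out. The lists of arabinogalactan proteins, aquaporins, lipid transfer proteins and epidermis had 0 measured genes. Sequences were not analysed here. The deviations of same-numbered arrays from their group means correlated at -0.26, 0.05 and 0.04, so the numbers were not taken to pair the arrays. Alternatives were other scalings, filters and limits, a replicate block, trended and robust eBayes, and arrays left out.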

Additional observations from a re-analysis of the deposited data

How the results depend on the processing

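The number of members was 31 with arrays centred on their medians, where 30 of the 36 remained and SKU5 was new, and 35 after quantile normalization, without AT5G20885. It was 36 with a gene's probe sets averaged and without probe sets ending in _s_at or _x_at, and 35 to 44 with single arrays left out. Of the 36, 25 remained without each single array, and 29 without mock 1 and NPA 3 together, a choice made after seeing the data, when 9 new genes gave 38. A mock mean of at least 9 left 7 and a difference of at least 1 left 20, fewer by construction. The median difference of 1.02 was 0.91 with centred arrays, which shifted all differences down by 0.11, and 0.97 to 1.05 with single arrays left out.

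Over all probe sets, 628 rose and 55 fell. With centred arrays 391 rose and 97 fell, so that 80.1% of calls were higher in place of 91.9%, and after quantile normalization 87 fell. With the replicate number as a block 398 rose. With single arrays left out, whichever it was, 290 to 405 rose and 14 to 42 fell, with fewer arrays. Of the listed genes that are no members, 26 rose, 17 with the replicate block and 14 to 20 with single arrays left out (14 without mock 2, 15 without NPA 2, 16 without mock 3 and 17 without NPA 1), and 0 to 1 fell. That 1 was SWEET11 without NPA 3 (adjusted p = 0.0460). Of 55 other genes followed, 22 were called, and 10 of these kept the call without each single array. The cause of these changes was not tested. The planned comparison of promoter motifs was not run.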
